A study of Mus musculus with 9 samples.

Results

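The 9 genes described here are the ones most often used to recognise microglia in a resting, homeostatic state: P2ry12, P2ry13, Tmem119, Cx3cr1, Sall1, Olfml3, Gpr34, Siglech and Fcrls. They were taken by symbol from a table of 54532 genes, and each symbol matched 1 row. BV2, an immortalized cell line made from mouse microglia, was the source of the RNA, sequenced as 3 groups of 3 libraries. The control cells (Ctrl) were kept in complete medium with 10% serum. The OGD cells were under oxygen–glucose deprivation, that is, low-glucose medium with 4% serum in a chamber at 4% O2. The OGD+A-485 cells had the same deprivation plus A-485, which inhibits the acetyltransferase P300. The study's methods give 24 h of deprivation and 50 μM A-485 for the preceding cell experiments, and both are taken to hold here. No group had A-485 without deprivation, so every value for A-485 is for A-485 under OGD. Nothing in the labels says that the libraries came from separate cultures, so the p-values measure the spread between these libraries, which may be technical.

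In the brain, these genes set microglia apart from other macrophages, and most of them fall when microglia are activated or taken into culture. P2RY12 and P2RY13 are receptors for ADP, and P2RY12 guides microglial processes to injured cells. CX3CR1 is the receptor for fractalkine, a ligand made by neurons, and GPR34 is a receptor for lysophosphatidylserine. SALL1 is a transcription factor needed for microglial identity. Many of the genes depend on TGF-beta from the tissue and on the macrophage transcription factor PU.1, which is encoded by Spi1.

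The libraries held 12593250 to 16091038 reads on genes, and mitochondrial genes took 1.14% to 2.20% of them. Expression was deposited as FPKM, fragments scaled to gene length and to library depth, from which whole reads could be recovered. A gene of 1 kb with 1 read stood at 0.0618 to 0.0786 FPKM, and a count of 0 reads over a group allows up to 3 reads. The cells carried the markers of their lineage: all 12 macrophage and microglia lineage markers averaged at least 1 FPKM over the 9 libraries. In Ctrl, Cd68 stood at 278 FPKM and Spi1 at 43.9 FPKM. The mean of Aif1 passed 1 FPKM only in OGD+A-485, with 0.613 FPKM in Ctrl, 0.889 FPKM in OGD and 2.57 FPKM in OGD+A-485.

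Of the 9 homeostatic genes, 2 were expressed at a mean of at least 1 FPKM in any group: Cx3cr1 and Tmem119. A further 3 genes, Fcrls, P2ry13 and P2ry12, were low, with a mean between 0.2 and 1 FPKM in OGD+A-485 and under 0.2 FPKM in Ctrl and OGD. The other 4, Gpr34, Olfml3, Sall1 and Siglech, stayed under 0.2 FPKM in every group. Of these, Siglech had 0 reads in all 9 libraries and Sall1 had 1.

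**Figure D1:**
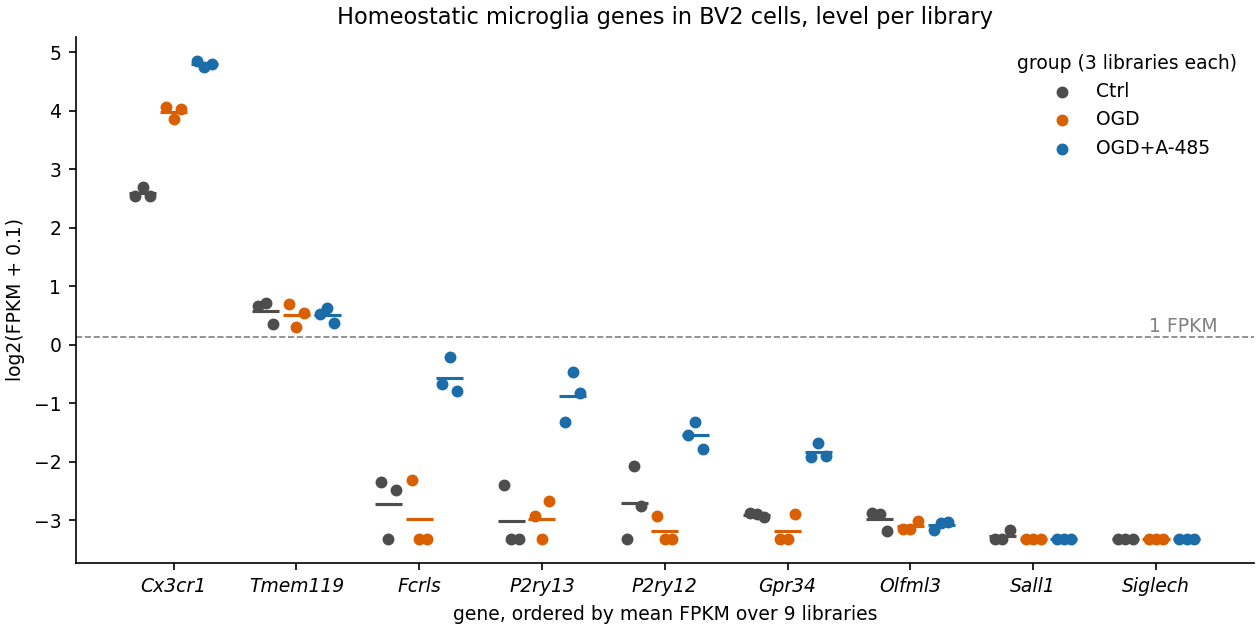
Level of the 9 genes in each library as log2(FPKM + 0.1), with genes on the horizontal axis in the order of their mean and a short bar at the mean of each group of 3 libraries. Cx3cr1 rises in steps from Ctrl to OGD to OGD+A-485, Tmem119 lies level just above the dashed line at 1 FPKM, and Fcrls, P2ry13, P2ry12 and Gpr34 stand off the bottom of the plot in OGD+A-485.

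Cx3cr1 (ENSMUSG00000052336, chr9:119901616-120069879 of GRCm38, minus strand) was the most abundant of the 9. It stood at 5.72, 6.36 and 5.69 FPKM in the 3 Ctrl libraries, from 344, 408 and 415 reads. In OGD it stood at 16.7, 14.4 and 16.2 FPKM, from 955, 842 and 1025 reads. In OGD+A-485 it stood at 28.8, 26.9 and 27.8 FPKM, from 1899, 1913 and 1806 reads. No library of one group reached the range of another, and Cx3cr1 was lowest in Ctrl and highest in OGD+A-485.

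The group means were 5.92 ± 0.378, 15.7 ± 1.21 and 27.8 ± 0.984 FPKM (SD, n = 3 each). On the log2(FPKM + 0.1) scale, on which all fold changes here are given, Cx3cr1 was higher in OGD than in Ctrl by 1.39 (SE 0.07, limma adjusted p = 1.547e-06). It was higher in OGD+A-485 than in OGD by a further 0.82 (95% interval 0.67 to 0.98, limma adjusted p = 1.465e-05). Against Ctrl, OGD+A-485 was higher by 2.22 (limma adjusted p = 3.861e-08). The 50 nearest tested genes on the chromosome had median changes of 0.03, -0.30 and -0.16 in these comparisons, although single genes at the locus did rise, as given with the overlapping genes. In bulk RNA, more cells carrying a transcript and more RNA per cell cannot be told apart, here or for the genes that follow. The level of Cx3cr1 in Ctrl exceeded that of 69.6% of protein-coding genes, against 84.8% in OGD and 91.1% in OGD+A-485.

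Tmem119 (chr5:113793729-113800516, minus strand) encodes a transmembrane protein used as a marker that tells microglia from blood-derived macrophages. Its Ctrl libraries stood at 1.49, 1.55 and 1.17 FPKM, its OGD libraries at 1.53, 1.13 and 1.35 FPKM, and its OGD+A-485 libraries at 1.33, 1.45 and 1.198 FPKM. Each value rested on 34 to 53 reads. The 3 groups overlapped throughout, with means of 1.40 ± 0.2002, 1.34 ± 0.1999 and 1.33 ± 0.126 FPKM (SD, n = 3 each).

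No difference in Tmem119 was detected in any comparison. OGD differed from Ctrl by -0.07 (95% interval -0.43 to 0.30, limma adjusted p = 0.7727), and OGD+A-485 from OGD by -0.0037 (95% interval -0.37 to 0.36, limma adjusted p = 0.9884). Against Ctrl, OGD+A-485 differed by -0.07 (95% interval -0.43 to 0.29, limma adjusted p = 0.7365).

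The libraries were alike for Fcrls (chr3:87250758-87263738, minus strand), a receptor of the Fc receptor-like family found on mouse microglia, except under A-485. Ctrl had 3, 0 and 3 reads and OGD had 3, 0 and 0 reads. The OGD+A-485 libraries had 18, 28 and 16 reads, or 0.528, 0.759 and 0.475 FPKM, and each was above all 6 others.

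Summed over a group and set against depth, the 62 Fcrls reads of OGD+A-485 against the 3 of OGD gave a ratio of 18.4 (95% interval 5.997 to 91.4, exact conditional). This interval, and those of the reads below, cover counting error only. In the limma fit, Fcrls was higher in OGD+A-485 than in OGD by 2.42 (SE 0.48, adjusted p = 0.002626) and higher than in Ctrl by 2.15 (adjusted p = 0.00415). The pseudocount of 0.1 FPKM holds these fitted values below the ratio of reads. Fcrls reached the minimum mean of 0.2 FPKM only through the OGD+A-485 libraries, so a gene of its level that did not rise there would not have been tested. OGD and Ctrl differed by -0.27 with an interval from -1.36 to 0.82 (adjusted p = 0.6889), which their 3 and 6 reads cannot narrow.

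Both ADP receptors lay under the minimum of 0.2 FPKM over all libraries. For P2ry13 (chr3:59207892-59210882, minus strand), Ctrl had 3, 0 and 0 reads, OGD had 1, 0 and 2 reads, and OGD+A-485 had 11, 25 and 17 reads. The last 3 are 0.298, 0.626 and 0.466 FPKM, above every library without A-485. The ratio of reads was 15.7 (95% interval 5.09 to 78.5) for OGD+A-485 against OGD, and 17.3 (95% interval 5.60 to 86.4) against Ctrl. In the fit without a filter on low values, P2ry13 was higher by 2.11 than in OGD (limma adjusted p = 0.002157) and by 2.15 than in Ctrl (limma adjusted p = 0.001544). It differed by 0.04 between OGD and Ctrl (95% interval -0.78 to 0.86), where both groups held 3 reads.

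P2ry12 (chr3:59216272-59262871, minus strand) lies next to P2ry13 on chromosome 3. It had 0, 5 and 2 reads in Ctrl, 1, 0 and 0 reads in OGD, and 9, 12 and 7 reads in OGD+A-485. In FPKM, the OGD+A-485 libraries stood at 0.242, 0.298 and 0.191, and the highest library without A-485 at 0.138. OGD+A-485 was therefore above both other groups without overlap, by a smaller margin over Ctrl than over OGD.

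The 28 P2ry12 reads of OGD+A-485 against 1 in OGD gave a ratio of 24.9 (95% interval 4.11 to 1017), and against 7 in Ctrl a ratio of 3.91 (95% interval 1.67 to 10.6). In the fit without a filter, P2ry12 was higher in OGD+A-485 than in OGD by 1.64 (limma adjusted p = 0.005138). The difference from Ctrl was 1.16 (limma adjusted p = 0.02426), past the threshold with all 9 libraries. That call against Ctrl did not hold in 14 of 17 alternatives, among them the omission of any 1 library other than Ctrl 2, with values from 0.23 to 2.50 and adjusted p from 0.004571 to 0.1209. Between OGD and Ctrl the ratio of P2ry12 reads was 0.157 (95% interval 0.00349 to 1.22), and no difference was called.

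Gpr34 (chrX:13632089-13640858, plus strand) was fainter still. It had 1 read in each Ctrl library, 0, 0 and 1 reads in OGD, and 5, 7 and 5 reads in OGD+A-485. The OGD+A-485 libraries, at 0.164, 0.212 and 0.166 FPKM, were again above all 6 others. The ratio of reads was 15.1 (95% interval 2.37 to 631) against OGD and 5.54 (95% interval 1.60 to 29.5) against Ctrl. In the fit without a filter, Gpr34 was higher in OGD+A-485 by 1.34 than in OGD (limma adjusted p = 0.0006504) and by 1.07 than in Ctrl (limma adjusted p = 0.001867).

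**Figure D2:**
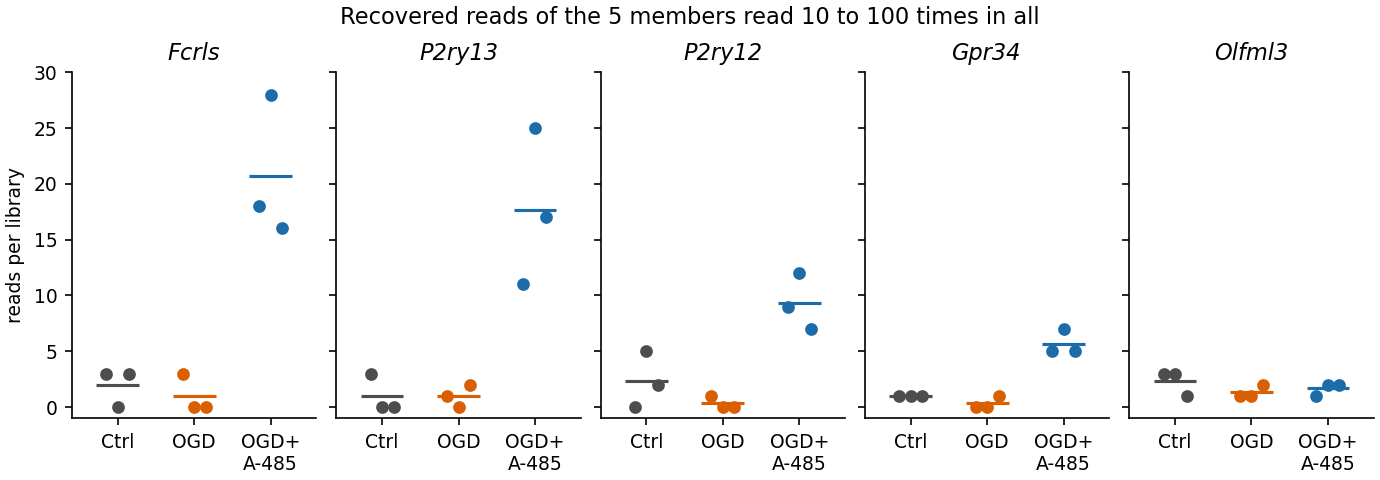
Recovered reads per library for the 5 genes with 10 to 100 reads in all, 1 panel a gene on a common linear axis, with points for the 3 libraries of each group and a bar at their mean. In Fcrls, P2ry13, P2ry12 and Gpr34 every OGD+A-485 point lies above all points of Ctrl and OGD, whereas the Olfml3 points run from 1 to 3 reads in every group.

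Olfml3 (chr3:103722222-103738001, minus strand) encodes a secreted olfactomedin-like glycoprotein. Its reads were 3, 3 and 1 in Ctrl, 1, 1 and 2 in OGD, and 1, 2 and 2 in OGD+A-485. The groups overlapped, and OGD+A-485 differed from OGD by 0.02 (95% interval -0.27 to 0.32, limma adjusted p = 0.9685, no filter). The ratio of its reads in the same comparison was 1.11 (95% interval 0.239 to 5.595), so changes within that interval were not detectable at this depth.

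Sall1 (chr8:89027235-89044162, minus strand) had 1 read, in Ctrl 3, and 0 in the other 8 libraries. A count of 0 allows up to 0.0143 FPKM in OGD and 0.0127 FPKM in OGD+A-485. Siglech (chr7:55768178-55778925, plus strand), a sialic acid-binding lectin of microglia and plasmacytoid dendritic cells, had 0 reads in every library. This allows up to 0.0202 FPKM in Ctrl, 0.0223 FPKM in OGD and 0.0198 FPKM in OGD+A-485. No comparison can be drawn for Sall1 or Siglech at this depth.

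Ordered by level per length in OGD+A-485, Cx3cr1 came first, Tmem119 second, and neither overlapped any other member. Fcrls (0.588 ± 0.151 FPKM), P2ry13 (0.463 ± 0.164 FPKM), P2ry12 (0.244 ± 0.0539 FPKM) and Gpr34 (0.181 ± 0.0273 FPKM) followed, and in this chain the libraries of each gene overlapped those of the next, P2ry13 and P2ry12 just touching at 0.298 FPKM (SD, n = 3 each). Olfml3, at 0.0181 FPKM, lay below all of them. In Ctrl and OGD, the order below Tmem119 rested on 0 to 5 reads a library and could not be read. An exact permutation test of 3 libraries against 3 cannot go below p = 0.1, so none was run on these orders.

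In OGD against Ctrl, 1 of the 9 members was called, namely Cx3cr1, which was higher. A call needed an unadjusted limma p under 0.01 and a log2 fold change beyond 0.5 in either direction. Of 16123 genes tested, 11.2% were called higher and 9.81% lower. Cx3cr1 was also the 1 member whose OGD libraries all lay above its Ctrl libraries, as for 25.7% of genes with at least 10 reads. No member was called lower. Of the 9, 3 (Cx3cr1, Tmem119 and Fcrls) passed the minimum mean of 0.2 FPKM and 7 had enough reads for a fit without it.

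Between OGD+A-485 and OGD, 2 members were called, both higher with A-485: Cx3cr1 and Fcrls. The background was 12.2% of tested genes called higher and 13.4% called lower. Every OGD+A-485 library lay above every OGD library in 5 members (Cx3cr1, Fcrls, P2ry13, P2ry12 and Gpr34), as in 26.6% of genes with at least 10 reads and 12.6% of those with 10 to 100 reads. Without the filter on low values, the same 5 were called higher, against 8.4% of the 27669 genes fitted. They were also called higher by limma-voom on the recovered reads of genes with at least 10 reads, which was added once the values were known, against 12.3% of 19276 genes. Fcrls, P2ry13, P2ry12 and Gpr34 reached 10 reads through the OGD+A-485 libraries, so these counts favour a rise.

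Between OGD+A-485 and Ctrl, Cx3cr1 and Fcrls were again the 2 members called, both higher, beside 17% of tested genes called higher and 16.6% called lower. With FPKM rescaled to the library totals, 2253 genes were called higher and 3350 lower, in place of 2747 and 2684. Both members stayed called higher under that scaling, but Fcrls lost the call at a pseudocount of 0.01 (3.68, limma adjusted p = 0.04158), which left 1 member called. The 5 members named above had every OGD+A-485 library above every Ctrl library, as had 29.8% of genes with at least 10 reads and 16.2% of those with 10 to 100 reads. They were called higher without the filter (11.3% of genes) and by limma-voom (16.7%). Here too, Fcrls, P2ry13, P2ry12 and Gpr34 reached 10 reads through the OGD+A-485 libraries, so these counts favour a rise. The call of P2ry12 against Ctrl did not hold in 14 of 17 alternatives. The 3 comparisons share libraries in pairs, so their results are not independent of each other.

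**Figure D3:**
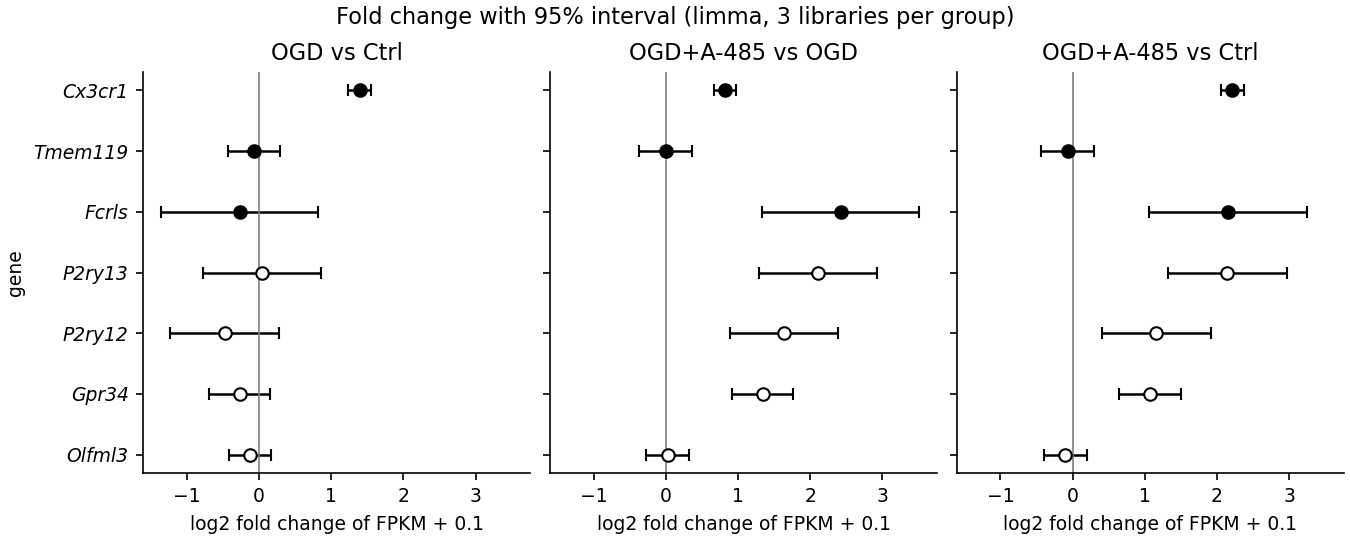
Log2 fold change of FPKM + 0.1 with its 95% interval from limma for the 7 members that could be fitted, in 3 panels for the 3 comparisons (3 libraries per group). Filled points come from the fit of genes that averaged 0.2 FPKM or more and open points from the fit without that filter. In OGD vs Ctrl the Cx3cr1 interval, from 1.24 to 1.55, is the one that lies clear of 0. In both panels with A-485, the intervals of Tmem119 and Olfml3 include 0 and the others do not.

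Promoter sequences were looked up for the members that moved. RefSeq start sites (GRCm38.p6) were listed for 7 members, and Gpr34 and Tmem119 had no entry. Each window holds 250 bases before and 50 after the start, written 5′ to 3′ along the gene, and capitals mark AGGAAG or its reverse complement CTTCCT, the core that PU.1 and related ETS factors bind. The windows are chr9:120068247-120068546 for Cx3cr1, chr3:59262936-59263235 for P2ry12, chr3:59210833-59211132 for P2ry13 and chr3:87263475-87263774 for Fcrls, all on the minus strand.
Cx3cr1: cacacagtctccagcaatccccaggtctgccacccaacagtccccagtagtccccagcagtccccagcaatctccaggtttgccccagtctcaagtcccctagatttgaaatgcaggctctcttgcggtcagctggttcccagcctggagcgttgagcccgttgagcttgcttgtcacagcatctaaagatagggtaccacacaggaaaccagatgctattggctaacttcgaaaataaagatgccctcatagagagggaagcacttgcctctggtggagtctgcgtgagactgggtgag
P2ry12: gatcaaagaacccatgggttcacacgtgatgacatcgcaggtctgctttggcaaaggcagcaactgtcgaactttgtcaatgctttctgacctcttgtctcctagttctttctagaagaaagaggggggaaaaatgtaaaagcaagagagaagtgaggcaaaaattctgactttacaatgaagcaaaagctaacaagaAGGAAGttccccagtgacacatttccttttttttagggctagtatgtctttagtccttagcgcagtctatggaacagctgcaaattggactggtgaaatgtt
P2ry13: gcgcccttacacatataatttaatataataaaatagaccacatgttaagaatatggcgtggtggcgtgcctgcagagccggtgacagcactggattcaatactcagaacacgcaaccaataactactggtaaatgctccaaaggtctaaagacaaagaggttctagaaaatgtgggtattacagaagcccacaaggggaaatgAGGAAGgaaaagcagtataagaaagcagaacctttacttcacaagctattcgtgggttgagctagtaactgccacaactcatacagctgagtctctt
Fcrls: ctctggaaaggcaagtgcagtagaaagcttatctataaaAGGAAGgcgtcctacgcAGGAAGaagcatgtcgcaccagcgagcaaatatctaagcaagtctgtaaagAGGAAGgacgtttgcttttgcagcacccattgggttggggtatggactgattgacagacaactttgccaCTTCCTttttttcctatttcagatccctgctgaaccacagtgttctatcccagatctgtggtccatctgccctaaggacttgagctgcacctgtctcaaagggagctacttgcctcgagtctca
P2ry12 and P2ry13 each held the core once, starting at positions -52 and -47 from the start site, Fcrls held it 4 times, and the Cx3cr1 window did not hold these letters. Olfml3, which had no called change, held it once. Of Sall1 and Siglech, which had too few reads to compare, 1 of the windows of Sall1 held it once and Siglech did not hold it. In all, 5 of the 7 members with an entry had the core. Of 32851 windows of this length, 35.4% held the core on either strand. That is a share of windows, whereas the 7 members had 9 windows, as Sall1 had more than 1. The count of members is therefore not like for like with it. The hypoxia factor core ACGTG was in P2ry12, where both matches are CACGTG read on either strand, and in Siglech, beside 19.6% of windows. The SMAD motif CAGACA was in Fcrls and Siglech, beside 21% of windows. The 3 motifs do not contain one another. A match is a description of the letters and not a bound site.

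Several members lie across other genes, and the sources used here do not say whether reads were counted by strand. P2ry12 and P2ry13 both sit inside Med12l, which runs on the opposite strand, shares 9 exon bases with P2ry12 and 0 with P2ry13, and had 22, 19 and 104 reads in Ctrl, OGD and OGD+A-485. Med12l thus also held most reads in OGD+A-485, and its part in the ADP receptor reads was not tested. In the same cluster of receptors, P2ry14 had 1 read in all and Gpr171 had 0. Gpr34 sits inside Cask on the opposite strand, which shared 0 exon bases with it and had 1126, 1181 and 1124 reads in the 3 groups. The annotated span of Cx3cr1 meets 9 other genes, of which the antisense Gm33858 alone shares exon bases with it, 78 of 4505. Gm33858 had 20, 162 and 109 reads, beside the 1167, 2822 and 5618 of Cx3cr1. Ttc21a, on the opposite strand, had 264, 550 and 1171 reads and so rose in the same order as Cx3cr1. On the same strand, Xirp1 had 15, 149 and 213 reads, Csrnp1 had 1087, 2144 and 1457, and Gorasp1 had 1604, 1468 and 2109, whereas Wdr48, on the opposite strand, had 3971, 2984 and 2471. The other 3 had at most 11 reads in a group. The part of these genes in the reads of Cx3cr1 was not tested.

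The genes most like Cx3cr1 over the 9 libraries, by the root-mean-square difference of centred log2(FPKM + 0.1) among 10037 protein-coding genes that averaged 1 FPKM or more, were Hist1h2bc (0.0932), Rtl5 (0.0935) and Cd72 (0.111). Cd72, a lectin-like receptor of B cells and macrophages, went from 4.89 to 13.4 and 25.9 FPKM over the groups, against 5.92, 15.7 and 27.8 FPKM for Cx3cr1. Those most like Tmem119 were Ss18l2 (0.0804), Dmap1 (0.0821) and Atrn (0.0966). Their changes against Ctrl ran from -0.134 to -0.0376, and those of Tmem119 were -0.0663 and -0.0700.

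The other genes of the pathways were counted in lists, in which some genes stand more than once. Fold changes over all tested genes had medians of 0.0144 for OGD against Ctrl, and of 0.0119 and 0.0156 for OGD+A-485 against OGD and against Ctrl. In the same order, 11.2%, 12.2% and 17% of all tested genes were called higher and 9.81%, 13.4% and 16.6% lower. Of the ligands, receptors, enzymes and partners in nucleotide and fractalkine signalling, 25 of 31 could be tested. In OGD against Ctrl, 5 were higher and 1 was lower (median 0.107), with Rgs1 higher by 1.37 and Arrb1, a beta-arrestin, by 1.16, and the adenosine receptor Adora2a lower by a log2 difference of -0.82. With A-485 added to OGD, 9 were higher and 3 lower (median 0.397). Kcnk13, the potassium channel that works with P2RY12 in microglia, was higher by 1.35 and Pik3r5 by 0.97, whereas Adora2b differed by -0.86 and the ectonucleotidase Entpd1 by -0.78. Relative to Ctrl, the OGD+A-485 cells had 16 higher and 3 lower (median 0.626), with the UDP receptor P2ry6 higher by 1.40. Cx3cl1, the ligand of CX3CR1, had means of 0.294, 0.172 and 0.280 FPKM in Ctrl, OGD and OGD+A-485. Its OGD libraries, at 0.160 to 0.181 FPKM, lay below all others, and the difference from Ctrl of -0.52 was not called (limma adjusted p = 0.1845).

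Of 32 genes of the TGF-beta pathway, 26 could be tested. In OGD against Ctrl, 9 were higher and 0 lower (median 0.265), with Id2 higher by 1.90. Once A-485 was added, 2 were higher and 6 lower than in OGD (median -0.173). The 2 were Nrros, which holds latent TGF-beta on microglia and went from 25.8 to 85.0 FPKM (1.71), and Skil (0.90). Ltbp3, which binds latent TGF-beta, differed by -2.34 and the TGF-beta mediator Smad3 by -1.03. Against Ctrl, 7 were higher and 6 lower with OGD+A-485 (median 0.27), Tgif2 among the latter at -1.35.

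Of 38 other genes of the microglia signature, 27 could be tested. In OGD against Ctrl, 6 were higher and 0 lower (median 0.209), with Entpd1 higher by 1.14. A-485 under OGD left 16 higher and 2 lower than OGD (median 0.779), the 2 being Arsb (-0.93) and Entpd1 (-0.78). C1qb, a chain of complement C1q, was listed at 0 in all Ctrl and OGD libraries and stood at 13.03 ± 0.440 FPKM in OGD+A-485, and C1qc went from 0.0136 FPKM in OGD to 4.15 FPKM. Compared with Ctrl, 19 were higher and 0 lower in OGD+A-485 (median 1). C1qb and C1qc reached the minimum mean of 0.2 FPKM only through the OGD+A-485 libraries, so the counts with A-485 favour a rise.

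All 20 microglial transcription factors listed could be tested. In OGD against Ctrl, 2 were higher, Bhlhe40 (1.52) and Bhlhe41 (1.48), and 5 were lower (median -0.0213), with Cebpa at -1.29 and Tal1 at -0.92. Comparing OGD+A-485 with OGD, 9 were higher and 3 lower (median 0.364), with Maf higher by 2.92, Cebpa by 2.42, and Nr4a1 at -0.999. The comparison of OGD+A-485 with Ctrl had 10 higher and 4 lower (median 0.481), with Sall3, a relative of Sall1, at -1.18.

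For comparison, 24 of 25 genes that mark disease-associated microglia, a state in which homeostatic genes are low, could be tested. In OGD against Ctrl, 8 were higher and 0 lower (median 0.404), Itgax by 1.16 and Cd52 by 1.02, and with quantile normalization 4 genes were called in place of these 8. A-485 added to OGD went with 14 higher and 2 lower (median 0.946), with Igf1 higher by 2.92 and Gpnmb by 1.61, and with Spp1 at -1.52 and Itgax at -0.67. Set against Ctrl, 15 were higher and 2 lower in OGD+A-485 (median 1.19), with Lgals3 higher by 2.26 and Cst7 at -0.59. In the OGD+A-485 libraries, genes of this list were thus called higher beside the members Cx3cr1 and Fcrls. Fcrls passed the filter only through those libraries, and Tmem119 was not called.

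**Figure D4:**
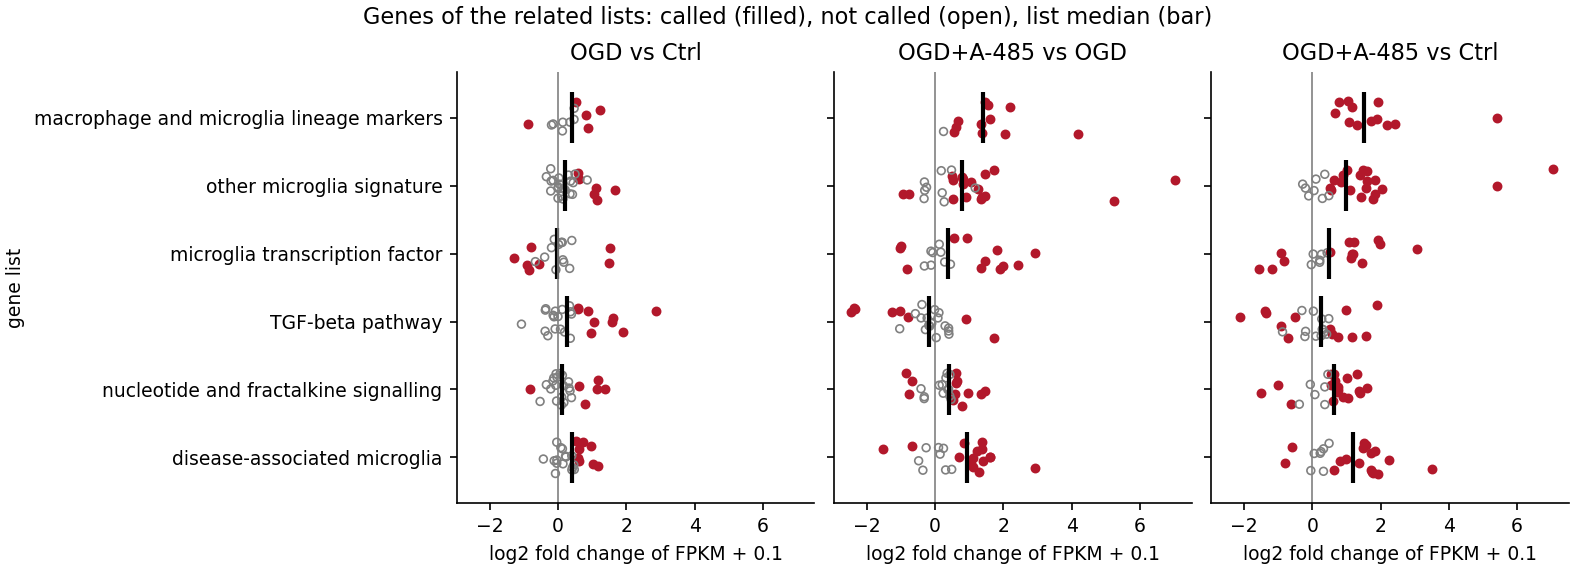
Log2 fold change of FPKM + 0.1 for the tested genes of 6 lists (rows) in the 3 comparisons (panels), with filled points for called genes, open points for the others and a black bar at the list's median. In OGD+A-485 vs OGD the medians run from -0.173 for the TGF-beta pathway to 1.41 for the lineage markers.

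The markers of the macrophage and microglia lineage also changed, while Tmem119 had no called change. Olfml3, Sall1 and Siglech had too few reads to be set beside them. Of the 12, 4 were higher and 1 lower in OGD against Ctrl (median 0.41), 11 were higher and 0 lower in OGD+A-485 against OGD (median 1.41), and 12 were higher against Ctrl (median 1.52). Their summed level ran from 728 to 744 FPKM in Ctrl, 896 to 935 FPKM in OGD and 3204 to 3347 FPKM in OGD+A-485. Lyz2, encoding lysozyme, was the largest part of the sum in OGD+A-485. It went from 93.3 to 1698 FPKM between OGD and OGD+A-485. Over the same 2 groups, Csf1r, the receptor for colony-stimulating factor 1, went from 44.6 to 131 FPKM. Fcgr1 went from 16.0 to 8.69 to 40.1 FPKM over the 3 groups. The part of these markers in the values of the members was not tested.

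Markers of border macrophages, which live around the brain rather than in it, moved too. Their summed level ran from 25.35 to 29.1 FPKM in Ctrl, 37.7 to 44.2 FPKM in OGD and 72.5 to 87.9 FPKM in OGD+A-485, most of it from Pf4. Of 3 that could be tested out of 5, 1 was higher in OGD against Ctrl, and all 3, Pf4, Ms4a7 and Mrc1, were higher in both comparisons of OGD+A-485. Ms4a7 and Mrc1 reached the minimum mean of 0.2 FPKM only through the OGD+A-485 libraries, so these counts favour a rise. Of all genes tested, 12.2% were called higher in OGD+A-485 against OGD and 17% against Ctrl. Mrc1, the mannose receptor, had 0, 0 and 2 reads in Ctrl, 0 in each OGD library, and 102, 125 and 91 in OGD+A-485. Cd163 was at 0 in all 9 libraries. Lyve1, too low to be tested, went the other way with A-485. It had 0, 4 and 2 reads in Ctrl, 7, 5 and 4 in OGD, and 1, 1 and 0 in OGD+A-485.

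Markers of other cell types were near or at 0. The neuron, astrocyte, fibroblast and T and B cell lists summed to at most 0.151, 0.155, 0.0234 and 0.286 FPKM in any library, and none of their genes could be tested. The monocyte list summed to at most 3.23 FPKM in Ctrl, 1.32 FPKM in OGD and 0.266 FPKM in OGD+A-485, where Ly6c2 was at 0. The oligodendrocyte list summed to 1.02 to 2.36 FPKM with Mog and Mag at 0 (2 of 4 tested, 0 called higher and 1 lower in OGD+A-485 against OGD, 0 called in the other comparisons). Endothelial markers summed to at most 1.28 FPKM in Ctrl, 3.06 FPKM in OGD and 4.46 FPKM in OGD+A-485 with Cldn5 at 0, and of 3 tested out of 4, 2, 1 and 2 were called higher and 0 lower.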

How the data were processed

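The authors counted clean reads on genes with featureCounts and deposited FPKM (builds GRCm38 and mm10 in the submitters' processing notes). The aligner is not given in the sources used here. FPKM multiplied by gene length and divided by its smallest value above 0 gave whole reads (relative tolerance 1e-06) for 100% of values. The divisor of each library was 0.953 to 1.05 times its reads on genes, so the deposited FPKM already hold a scaling between libraries.

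Samples were grouped by their labels. The 16123 genes averaging 0.2 FPKM or more were fitted as log2(FPKM + 0.1) over all 9 libraries in limma 3.58.1 (R 4.3.3), with group means and a prior variance that follows the mean, tested on simulated data. Calls needed an unadjusted p under 0.01 and a log2 fold change beyond 0.5 in either direction, and adjusted p-values are Benjamini-Hochberg over all genes fitted. Members under the filter were taken from a fit without it. DESeq2, which the authors used, was not run. The main fit used the FPKM as deposited, and the recovered reads were fitted with limma-voom as an alternative. Alternatives were other pseudocounts, filters, scalings, thresholds, models and omitted libraries.

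All 9 members are named. From each list, the 2 called genes with the largest change in each direction and comparison could be named, at a mean of at least 1 FPKM (some are not reported here), and markers and neighbours outside that rule were named where a result turned on them. Members and lists were chosen with earlier results of these data known. Libraries of a group differed by more than sampling noise, and all 9 members had the same coordinates in GENCODE M21.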

Additional observations from a re-analysis of the deposited data

How the results depend on the processing

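Of 749 alternative values, 709 were taken as unchanged. For this, a fold change had to keep its direction and its side of the threshold, and a count had to stay within a fixed ratio of the main count. Cx3cr1 kept all its calls (1.27 to 1.46 for OGD against Ctrl, 0.75 to 1.12 for OGD+A-485 against OGD, 2.06 to 2.37 against Ctrl). The count of members called in OGD+A-485 against OGD was 2, and became 1 at a minimum mean of 1 FPKM, 5 without a filter and 5 with limma-voom on genes with at least 10 reads, because other genes were then tested. Against Ctrl it went from 2 to 1, 5 and 5 in the same way, and to 1 at a pseudocount of 0.01, where Fcrls (3.68) and Gpr34 (2.14) lost the call. At a pseudocount of 1 the fold changes of P2ry12 (0.30 against OGD, 0.23 against Ctrl) and Gpr34 (0.22 and 0.19) fell under the limit of 0.5. P2ry12 against Ctrl also lost its call at a pseudocount of 0.01 (2.50), with quantile normalization (1.03), with rescaling to library totals (1.11), with only the groups compared (1.16) and with libraries left out (0.86 to 1.48). The disease-associated list had 4 genes called in OGD against Ctrl with quantile normalization in place of 8. The cause was not tested.

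Uncalled values near 0 changed sign. Tmem119 went to 0.063 (OGD+A-485 against OGD, quantile normalization) and 0.13 (against Ctrl, median of neighbouring genes removed), and Olfml3 to -0.088 (OGD+A-485 against OGD, quantile normalization). With libraries left out, Tmem119 ran from -0.18 to 0.041 (OGD against Ctrl), -0.11 to 0.091 (OGD+A-485 against OGD) and -0.18 to 0.00039 (against Ctrl), P2ry13 from -0.11 to 0.34 (OGD against Ctrl) and Olfml3 from -0.0033 to 0.067 (OGD+A-485 against OGD).

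The replicate numbers did not pair the libraries: the mean correlation of deviations was -0.0302 for the same number (-0.125 to 0.0725) and 0.0151 for different numbers. With the replicate number as a block, 1, 2 and 2 members were called in the 3 comparisons, as without it, and P2ry12 against Ctrl (1.16) lost its call. Depth limits Sall1, Siglech and Olfml3, which had 1, 0 and 16 reads in all.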
